A study of Mus musculus with 21 samples.

Results

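The heat shock proteins and their cochaperones were examined in hearts of mice treated with doxorubicin (DOX) with and without a 4T1 tumor. The members were taken by gene symbol. They comprised the HSP70 and HSP110 (Hspa, Hsph), HSP90, small heat shock protein (Hspb, Cryab) and mitochondrial chaperonin (Hspd, Hspe) genes, the J-domain genes Dnaja, Dnajb and Dnajc, the BAG genes Bag1 to Bag6, and the regulators Hsf1, Hsf2, Hsbp1 and Hsbp1l1. This gave 81 of the 56691 genes in the deposited table. Of these, 74 passed the filter on low values (a mean of at least 0.5 FPKM, fragments per kb of exon per 1000000 counts) and were tested among 13990 genes. The 7 members below it were Hspb9, Dnajc6, Dnajc22, Dnajb3, Dnajb7, Dnajb8 and Dnajb13, with means of 0 to 0.315 FPKM. Dnajc22 had 0 counts in all 21 libraries.

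Each library was made from the heart of 1 mouse, and the labels place 5 libraries in Control, 5 in DOX, 6 in Tb (tumor-bearing) and 5 in Tb-DOX (tumor-bearing and given DOX). DOX mice received 5 mg/kg intraperitoneally in each of 3 weekly injections, Control and Tb mice received normal saline, and the tumors grew from subcutaneously injected 4T1 cells, a murine breast cancer line (doses and tumor from the methods of the paper). Strain, sex and age are not given in the sources used here. The labels give the 4T-1 line as the origin of every library, although hearts were sampled. Summed expression of 9 cardiomyocyte markers was 51225 to 93406 CPM (counts per 1000000, scaled by TMM) in every library, and that of 5 epithelial markers was 0.195 to 4.57 CPM. Cardiac transcripts were thus abundant in every library and epithelial ones near 0. P-values measure the spread between mice within these groups.

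Total counts were 13521200 to 18601445 per library. Tb replicate 5 stood apart from the other Tb libraries, with a median correlation of 0.940 to its group (0.976 in Tb replicate 6 and 0.984 to 0.990 in the other 4). It was the highest Tb library for 34 of the 74 members, and its 8 immediate early genes summed to 1166 CPM, against a Tb median of 139. In their groups, Control replicate 3 was highest for 33 members and Tb-DOX replicate 5 for 28. A count of this size is thus not particular to Tb replicate 5. Control replicate 3 had a median correlation of 0.985 to its group, against 0.990 to 0.991 in the other Control libraries. The 8 immediate early genes had 3 higher and 0 lower in Tb against Control (6.28% of all genes called), 1 lower in Tb-DOX against Tb (background 2.54%) and 1 lower in DOX against Control (background 18.2%). Several marker sums moved with the groups. Cardiomyocyte markers summed to 61394 to 75837 CPM in Control and 76854 to 93406 in DOX, and to 51225 to 61264 in Tb and 64805 to 80603 in Tb-DOX. Macrophage markers (5 genes) summed to 78.7 to 101 CPM in Control and 32.3 to 62.9 in DOX. With a tumor they summed to 94.4 to 123 CPM in Tb and 56.3 to 106 in Tb-DOX. Smooth muscle and pericyte markers (5 genes) summed to 938 to 1033 CPM in Control and 1036 to 1173 in DOX. They were at 734 to 1143.5 CPM in Tb and 859 to 988 in Tb-DOX. Skeletal muscle markers (5 genes) summed to 3515 to 4934 CPM in Control and 1376 to 2790 in DOX. In Tb they summed to 1335 to 3399 CPM and in Tb-DOX to 1547 to 2724. This sum does not describe each gene. Of the 4 tested in DOX against Control, 1 was called higher and 1 lower, with a median log2 fold change of 0.44. Atrial markers (5 genes) summed to 100.2 to 376 CPM in Control and 393 to 750.1 in DOX. Of the 4 tested, 1 was called higher and 0 lower (all genes 18.0% higher and 18.2% lower). T cell markers (6 genes) summed to 311 CPM in DOX replicate 4 against a DOX median of 9.99, nearly all from Cd3e (309 CPM). Erythroid markers (5 genes) summed to 203 to 793 CPM in Control, 4.72 to 132 in DOX, 368 to 828 in Tb and 2.40 to 28.7 in Tb-DOX, and neutrophil markers (6 genes) to 2.39 to 56.9 without a tumor and 533 to 4998 with one. The part of these shifts in the results for the chaperones was not tested. In whole hearts, fewer cells of a type and less RNA per cell cannot be told apart.

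Heat shock proteins are molecular chaperones that bind unfolded proteins and help them fold, stay soluble or reach the degradation machinery. HSP70 works in a cycle in which J-domain proteins deliver clients and stimulate ATP hydrolysis, while HSP110 and several BAG proteins release the nucleotide, and HSP90 completes the maturation of kinases and receptors. The transcription factor HSF1 induces the stress-responsive members through heat shock elements (HSEs), inverted repeats of the triplet GAA, whereas members of the endoplasmic reticulum (ER) are induced by unfolded proteins through the ER stress element. Heart muscle carries large amounts of small heat shock proteins, among them alphaB-crystallin (Cryab) and HSPB7, which associate with the contractile apparatus.

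Promoters are shown for members that changed most or that differ in regulation, so that their elements can be compared. Sequences were taken from RefSeq (GRCm38.p6) and matched 64 of the 81 members by symbol. Each stretch covers the 150 bases before the annotated start, 5′ to 3′ on the strand of the gene, and capitals mark a heat shock element of at least 2 units (GAANNTTC or TTCNNGAA). The positions are chr5:149636337-149636486 (minus strand) for Hsph1, chr4:40722318-40722467 (plus) for Dnaja1, chr1:55087933-55088082 (minus) for Hspd1, chr5:29735748-29735897 (plus) for Dnajb6 and chr17:34972157-34972306 (minus) for Hspa1a.
Hsph1: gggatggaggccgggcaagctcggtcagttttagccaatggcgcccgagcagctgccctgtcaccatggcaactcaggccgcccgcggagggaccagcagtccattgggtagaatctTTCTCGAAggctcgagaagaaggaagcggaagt
Dnaja1: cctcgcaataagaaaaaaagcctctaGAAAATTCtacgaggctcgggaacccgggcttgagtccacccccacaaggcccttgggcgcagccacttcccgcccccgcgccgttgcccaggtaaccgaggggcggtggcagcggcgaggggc
Hspd1: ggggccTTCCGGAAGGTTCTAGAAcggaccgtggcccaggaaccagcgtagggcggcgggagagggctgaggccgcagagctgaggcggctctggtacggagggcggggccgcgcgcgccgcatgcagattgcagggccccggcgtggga
Dnajb6: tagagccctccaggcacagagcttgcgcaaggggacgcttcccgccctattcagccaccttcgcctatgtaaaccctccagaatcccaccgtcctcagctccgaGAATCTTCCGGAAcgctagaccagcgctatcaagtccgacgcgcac
Hspa1a: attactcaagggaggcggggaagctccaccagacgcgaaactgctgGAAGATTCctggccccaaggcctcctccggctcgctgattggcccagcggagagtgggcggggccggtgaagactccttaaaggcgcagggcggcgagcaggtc

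In the 300-base windows from 250 bases before to 50 after the start, an element of 3 units (GAANNTTCNNGAA or TTCNNGAANNTTC, both strands) was found in 4 of the 64 matched members, 6.25%, against 0.662% of all 27025 genes with a window (0.603% of 32851 windows). The 4 were Hsph1, Hspd1, Hspe1 and Dnajb6. Hspd1 and Hspe1 are transcribed away from each other and their windows share 285 bases, so they hold the same element. In Hsph1 the element of 3 units lies 37 to 49 bases after the start that bounds the stretch shown, and so outside it. Elements of 2 units, which include those of 3, were found in 16 of the 64 members, 25.0%, against 16.973% of all genes (15.056% of windows). The Hspa1b stretch equals that of Hspa1a in 149 of 150 bases.

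The ER stress element (CCAAT and CCACG separated by 9 bases, both strands) was found in 3 of the 64 members, 4.69%, against 0.137% of all genes (0.119% of windows). All 3 encode ER proteins, and they are shown because 2 of them were lower in Tb-DOX than in Tb. Capitals mark the element, which lies on the reverse strand in Hsp90b1. The positions are chr2:34771940-34772089 (plus strand) for Hspa5, chr10:86705445-86705594 (minus) for Hsp90b1 and chr14:118937782-118937931 (plus) for Dnajc3.
Hspa5: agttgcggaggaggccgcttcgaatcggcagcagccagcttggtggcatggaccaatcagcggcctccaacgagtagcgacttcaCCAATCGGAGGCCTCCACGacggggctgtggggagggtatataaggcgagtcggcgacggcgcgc
Hsp90b1: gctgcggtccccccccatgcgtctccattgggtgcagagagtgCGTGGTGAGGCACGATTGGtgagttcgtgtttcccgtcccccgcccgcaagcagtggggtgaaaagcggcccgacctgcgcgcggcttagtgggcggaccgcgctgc
Dnajc3: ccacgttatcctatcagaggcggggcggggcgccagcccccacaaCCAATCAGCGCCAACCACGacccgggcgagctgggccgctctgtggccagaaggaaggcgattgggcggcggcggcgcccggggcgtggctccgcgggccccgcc

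The members differed widely in level. Per length, the highest means over the 21 libraries were those of Hspb7 (493 FPKM), Cryab (425), Hsp90ab1 (365), Hspa9 (186), Hspa8 (186), Hspb8 (167), Hspd1 (132) and Hspa5 (121). These are small heat shock proteins of muscle and constitutive chaperones of the cytosol, mitochondria and ER. The classical stress-inducible HSP70 genes Hspa1a and Hspa1b were at 2.84 and 3.20 FPKM, and Hsf1 at 2.27. Without Tb replicate 5, at 34.0 and 27.4 FPKM for the HSP70 genes, their means over the other 20 libraries were 1.29 and 1.99, below that of Hsf1 (2.28). Summed over all members, expression was 9913 to 12010 CPM in Control, 9958 to 11414 in DOX, 8355 to 13290 in Tb and 8381 to 9236 in Tb-DOX.

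To ask how DOX changed the chaperones without a tumor, DOX was compared with Control. By edgeR's quasi-likelihood test, 27 of the 74 members passed an adjusted p of 0.05 (36.5%), while 36.2% of all genes tested did. The members were therefore called about as often as other genes. Of the 27, 16 were lower (21.6% of the members, background 18.2%) and 11 higher (14.9%, background 18.0%). With library totals in place of TMM the split was 20 lower and 7 higher. The median log2 fold change of the members was -0.09, and that of all genes 0.00. Groups did not overlap for 18 members, 8 of them higher (background 25.3%). Beyond an absolute log2 fold change of 1 there were 4 members (background 9.95%), namely Hsph1, Dnajc28 and Dnaja1, which fell, and Hsbp1l1, which rose.

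The same comparison in tumor-bearing mice, Tb-DOX against Tb, called 10 of the 74 members (13.5%, background 4.72%), 7 lower (background 2.54%) and 3 higher (background 2.18%). Groups did not overlap for 6 members, 3 of them higher (background 4.96%). Beyond an absolute log2 fold change of 1 were Hspa1a, Hsph1 and Hsbp1l1, 3 members (background 1.11%). The count was 17 without Tb replicates 5 and 6, 19 without Tb replicate 6 alone, and 3 without Tb-DOX replicate 2 or replicate 3. Tb replicates 5 and 6 were left out together after the values were seen. Calls gained in that fit, here and below, are therefore no separate support. Both comparisons called 5 members, Hsph1, Dnaja1, Hsbp1l1, Dnajc7 and Dnajc3, of which Dnajc3 had opposite signs (its rise without a tumor did not pass under library totals). The share of all genes called in both was not computed, so it is not known whether 5 is many. These comparisons share no library, but they come from 1 fit with a shared estimate of the spread.

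**Figure D1:**
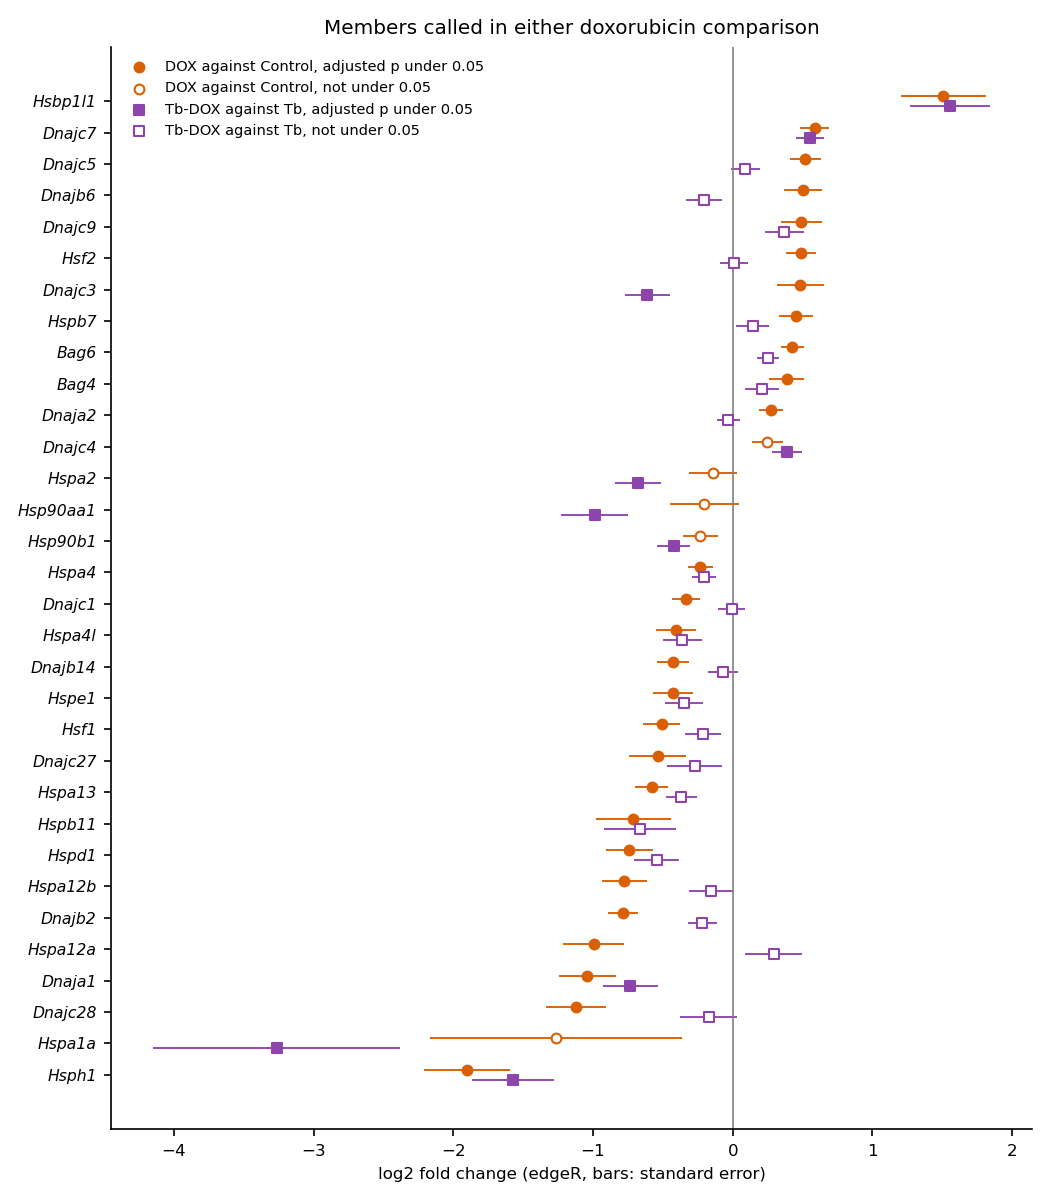
Log2 fold changes with standard errors (x axis) of the 32 members called in DOX against Control (orange circles, 5 against 5 libraries) or in Tb-DOX against Tb (purple squares, 5 against 6), with filled symbols for an adjusted p under 0.05. Hsph1 and Dnaja1 lie left of 0 and Hsbp1l1 and Dnajc7 right of 0 in both, while Dnajc3 lies at 0.48 in the first and -0.61 in the second.

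Among the regulators, the 2 heat shock factors moved in opposite directions in DOX hearts. Hsf1 expression was 18.5, 19.98, 17.4, 21.3 and 19.3 CPM in Control and 11.9, 11.1, 15.5, 11.2 and 18.1 in DOX. It fell by 0.51 on the log2 scale (SE 0.134, adjusted p = 0.00566), with 1 DOX library inside the Control range. Hsf2, a second factor that binds the same elements, was at 23.6, 21.4, 24.4, 23.4 and 25.0 CPM in Control and 30.1, 33.9, 36.8, 30.6 and 33.9 in DOX, with no overlap (log2 fold change 0.49, SE 0.106, adjusted p = 0.00128). In the tumor-bearing state neither passed the test. Hsf1 was 14.8 to 19.8 CPM in Tb (median 15.9) and 14.9, 14.0, 15.8, 12.1 and 15.5 in Tb-DOX (log2 fold change -0.21, adjusted p = 0.365). Hsf2 was 21.05 to 29.9 CPM in Tb (median 23.7) and 19.3 to 27.0 in Tb-DOX (log2 fold change 0.01, adjusted p = 0.964).

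Hsbp1l1, a little-studied relative of the HSF1-binding protein Hsbp1, had the largest increase of any member in both states, from a low level. Its expression was 0.578, 1.32, 1.37, 1.35 and 0.977 CPM in Control and 2.96, 3.40, 4.18, 2.33 and 3.09 in DOX. In tumor-bearing mice it was 0.457 to 1.69 in Tb (median 0.949) and 3.85, 2.29, 4.33, 2.28 and 3.04 in Tb-DOX. Treated and untreated libraries did not overlap in either state. The changes were 2.84-fold (SE 0.307 in log2, adjusted p = 0.000775) and 2.94-fold (SE 0.287, adjusted p = 0.00436). Hsbp1 itself was 84.9 to 98.0 CPM in Control and 77.2 to 102 in DOX, with a log2 fold change of -0.09 (adjusted p = 0.411) that passed at -0.23 under library totals (adjusted p = 0.0408).

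Of the 14 HSP70 and HSP110 members tested, 6 fell and 0 rose in DOX against Control, and 3 fell and 0 rose in Tb-DOX against Tb. Over all genes 18.2% were lower and 18.0% higher in the first comparison, and 2.54% and 2.18% in the second. With DESeq2 these were 7 and 5 lower and 0 higher, and at an unadjusted edgeR p of 0.05 they were 7 and 8 lower and 0 higher. Shares of all genes, here and below, are by edgeR's adjusted p. Those by DESeq2 and at an unadjusted p were not computed, so counts under these rules have no background. The strongest decrease of any member called in both states was that of Hsph1 (chromosome 5, 149537752 to 149559841, minus strand, in the table's coordinates, GRCm39 per the submitters' notes), which encodes HSP110. Hsph1 expression was 52.2, 84.3, 78.7, 95.2 and 70.6 CPM in Control and 20.8, 17.1, 22.7, 16.9 and 24.5 in DOX. All DOX libraries lay below all Control libraries, 3.74-fold lower (log2 fold change -1.90, SE 0.307, adjusted p = 9.66e-05). In tumor-bearing mice it was 131, 66.1, 83.7, 43.9, 45.4 and 22.9 CPM in Tb and 22.3, 22.9, 20.9, 16.05 and 27.7 in Tb-DOX. Tb replicate 6 lay within the Tb-DOX range and the other 5 above it, and the change was 2.98-fold lower (SE 0.294, adjusted p = 0.00466). The call was kept in all 21 fits that left out a library, in both states. The exact permutation test on log2(FPKM + 0.1), two-sided, gave p = 0.00794, the smallest possible, and p = 0.00649.

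The other HSP110 members, Hspa4 and Hspa4l, fell less. Hspa4 was 198 to 226 CPM in Control and 164 to 205 in DOX (log2 fold change -0.23, adjusted p = 0.0469), and the call was lost in 17 of 21 fits without a library. Hspa4l, known from germ cells, was 65.5 to 97.7 CPM in Control and 50.2 to 70.5 in DOX (log2 fold change -0.41, SE 0.146, adjusted p = 0.0338). In Tb-DOX against Tb these members had log2 fold changes of -0.21 and -0.36 and did not pass. Without Tb replicates 5 and 6 Hspa4l passed at -0.50 (adjusted p = 0.0205) and Hspa4 did not (-0.22, adjusted p = 0.102).

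Hspa12a and Hspa12b, distant relatives of HSP70, fell in DOX hearts. Hspa12a expression was 17.4, 20.7, 17.5, 21.8 and 21.1 CPM in Control and 10.6, 9.04, 7.36, 7.78 and 14.7 in DOX, with no overlap (1.99-fold lower, SE 0.218 in log2, adjusted p = 0.00143). Its gene overlaps, over 3079 bases on the opposite strand, a gene without a symbol at 6.42 FPKM, and the strand setting of the counting is not given, so reads of the pair cannot be told apart. Hspa12b, known from endothelium, was 35.9 to 44.5 CPM in Control and 20.4 to 31.9 in DOX (1.71-fold lower, SE 0.164, adjusted p = 0.00105). Its group ranges did not overlap either, and its gene overlaps Gm11037 (4.76 FPKM) on the same strand over 719 bases, so reads there are uncertain. Summed endothelial markers were 582 to 742 CPM in Control and 543 to 692 in DOX, and 1 of the 5, Tie1, was called lower (log2 fold change -0.38, adjusted p = 0.00396; median of the 5 -0.13). Their part in the change of Hspa12b was not tested. Hspa13, an ER-associated member, fell by 0.58 on the log2 scale (SE 0.117, adjusted p = 0.000712), from 20.9 to 27.5 CPM in Control to 13.2 to 21.8 in DOX.

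The stress-inducible Hspa1a and Hspa1b spread widely among untreated mice. Hspa1a was 2.63, 10.1, 4.62, 8.86 and 1.95 CPM in Control and 2.96, 2.09, 1.79, 2.25 and 2.54 in DOX. Hspa1b was 2.18, 13.4, 8.72, 14.4 and 3.06 in Control and 2.56, 1.70, 1.52, 1.36 and 1.19 in DOX. The DOX libraries lay in the lower part of the Control range or below it, and neither gene passed the test (log2 fold changes -1.27 and -2.31, SE 0.902 and 0.919, adjusted p = 0.284 and 0.0539). Under library totals Hspa1b passed (-2.44, adjusted p = 0.0349). With Tb replicates 5 and 6 left out of the fit, the log2 fold changes were -1.26 and -2.30 and the adjusted p 0.0372 and 0.0092.

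In tumor-bearing mice Hspa1a was 11.4, 2.58, 6.71, 1.86, 108 and 2.39 CPM in Tb and 2.01, 1.45, 1.23, 2.73 and 3.99 in Tb-DOX. The fitted change of -3.26 (SE 0.883, adjusted p = 0.037) rested on Tb replicate 5, since without it the log2 fold change was -1.10 (adjusted p = 0.189). Hspa1b was 27.5, 4.36, 9.17, 0.957, 82.3 and 1.71 CPM in Tb and 0.663 to 4.59 in Tb-DOX (log2 fold change -2.67, adjusted p = 0.0698), a change that was -1.40 without Tb replicate 5 (adjusted p = 0.237). The genes share 100-base transcript stretches over 48.6% of Hspa1a and 49.9% of Hspa1b, so the division of reads between them is uncertain.

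Hspa2, an HSP70 known for its role in spermatogenesis, was the only member with non-overlapping ranges that passed the test in Tb against Control. It was 5.07, 5.99, 4.90, 5.18 and 4.88 CPM in Control and 6.86, 8.93, 9.35, 8.51, 11.6 and 8.20 in Tb (log2 fold change 0.77, SE 0.163, adjusted p = 0.00404). In Tb-DOX it was 6.09, 4.10, 4.54, 7.80 and 5.24, lower than in Tb by 0.68 (SE 0.162, adjusted p = 0.0202). Male germ cell markers (10 genes) summed to 2.62 to 7.66 CPM in Control, 0 to 0.238 in DOX, 0.0615 to 0.181 in Tb and 0.447 to 7.03 in Tb-DOX. Hspa2 itself was 4.02 to 5.59 CPM in DOX, and the part of these markers in its change was not tested. The constitutive Hspa8 was 723 to 1064 CPM in Control and 612 to 1139.8 in DOX (log2 fold change 0.03, adjusted p = 0.92), and the mitochondrial Hspa9 had log2 fold changes of -0.04 and -0.11, with adjusted p of 0.815 and 0.604.

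No HSP90 member passed in DOX against Control (edgeR, 0 of 3, also 0 at an unadjusted p of 0.05 and 0 with DESeq2), and 2 of 3 fell in Tb-DOX against Tb, where 36.2% of all genes were called in the first comparison and 2.54% were lower in the second. Hsp90aa1, the inducible cytosolic form, was 190.3, 209, 270.3, 257 and 187 CPM in Control and 163, 156, 214, 213 and 222 in DOX (log2 fold change -0.20, adjusted p = 0.544). It was 310.2, 202, 230.4, 157, 550.2 and 167 in Tb and 136, 129, 118, 129 and 167 in Tb-DOX (log2 fold change -0.99, SE 0.241, adjusted p = 0.0219). Without Tb replicate 5 the change was -0.65 (adjusted p = 0.0205), so the call held at a smaller size. Hsp90b1, the ER form, was 320 to 446 CPM in Tb (median 397) and 282, 277, 289.6, 287 and 315 in Tb-DOX, with no overlap (log2 fold change -0.42, SE 0.119, adjusted p = 0.0436). Hsp90b1 did not pass in 14 of 21 fits without a library, nor under library totals (-0.41, adjusted p = 0.106). Hsp90ab1, the constitutive form, was 808 to 1400.1 CPM in Tb and 834 to 961 in Tb-DOX (log2 fold change -0.34, adjusted p = 0.11), and passed at -0.47 without Tb replicates 5 and 6 (adjusted p = 0.00753).

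The mitochondrial chaperonin, which folds proteins imported into the matrix, fell in DOX hearts in both of its subunits. Hspd1 (HSP60) was 453, 453, 477, 465 and 433 CPM in Control and 288, 304, 230.1, 205 and 338 in DOX, with a gap between the groups (1.67-fold lower, SE 0.168 in log2, adjusted p = 0.0018). Its cochaperonin Hspe1 (HSP10) was 71.9, 59.95, 93.6, 71.3 and 57.7 in Control and 54.9, 52.8, 49.1, 56.6 and 50.2 in DOX (1.35-fold lower, SE 0.142, adjusted p = 0.0222). Both genes share the promoter shown above. In tumor-bearing mice Hspd1 was 514, 449.9, 430.2, 412, 289.5 and 239 CPM in Tb and 280.4, 277, 264, 207 and 307 in Tb-DOX (log2 fold change -0.54, SE 0.161, adjusted p = 0.0544). Tb replicates 5 and 6 lay among the treated libraries, and without them the change was -0.75 (adjusted p = 0.000604). Hspe1 had a log2 fold change of -0.35 there (adjusted p = 0.143), and of -0.49 without these replicates (adjusted p = 0.0154). Dropping untreated libraries that lie among the treated ones widens the difference by construction, so the calls gained are no separate support.

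The other members of the mitochondrial list, which does not hold Dnajc4 or Dnajc28, did not pass in either state. They are the matrix HSP70 Hspa9, the J-domain proteins Dnaja3, Dnajc11, Dnajc15 and Dnajc19, and Dnajc30. Their log2 fold changes in DOX against Control ranged from -0.19 (Dnaja3) to 0.19 (Dnajc30). Of the 9 mitochondrial proteases and import motor genes outside the members, 1 rose (Clpx, the chaperone subunit of a matrix protease, log2 fold change 0.55, adjusted p = 0.000588) and 0 fell in DOX against Control, by edgeR and by DESeq2 (all genes 18.0% higher and 18.2% lower). In Tb-DOX against Tb (background 4.72%) 0 of 9 passed with either tool, and 1 was higher at an unadjusted edgeR p of 0.05.

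Among the 8 small heat shock proteins tested, 1 rose and 1 fell in DOX against Control, and 0 of 8 passed in Tb-DOX against Tb by edgeR's adjusted p (3 lower at an unadjusted p of 0.05, and 1 with DESeq2). Of all genes 18.0% rose and 18.2% fell in the first comparison, and 4.72% were called in the second. Hspb7, the most abundant member, was 1509.5, 1227, 1402, 1204 and 1127 CPM in Control and 1750.0, 1838, 1515, 2010.5 and 1739 in DOX (1.37-fold, SE 0.123 in log2, adjusted p = 0.00689). It was 959 to 1648 in Tb (median 1108) and 1223 to 1410.2 in Tb-DOX (log2 fold change 0.14, adjusted p = 0.531), and without Tb replicates 5 and 6 the change was 0.31 and passed (adjusted p = 0.0485). Hspb11, which despite its name is a subunit of the intraflagellar transport machinery, fell from 2.78 to 4.30 CPM in Control to 1.21 to 4.01 in DOX (log2 fold change -0.71, SE 0.267, adjusted p = 0.0419). It did not pass in 11 of the 21 fits that left out a library.

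The stress-responsive small heat shock proteins did not pass the test. Cryab was 702, 649, 608, 672 and 658 CPM in Control and 637, 629, 478, 697 and 789 in DOX (log2 fold change -0.03, SE 0.175, adjusted p = 0.924). Hspb1 (HSP25) was 86.6, 75.4, 105, 69.6 and 65.0 in Control and 91.0, 70.1, 95.4, 103 and 181 in DOX (log2 fold change 0.43, SE 0.501, adjusted p = 0.528). Both were highest in Tb replicate 5, Cryab at 1189 CPM against 500.5 to 635 in the other Tb libraries and Hspb1 at 512 against 43.7 to 76.6.

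**Figure D2:**
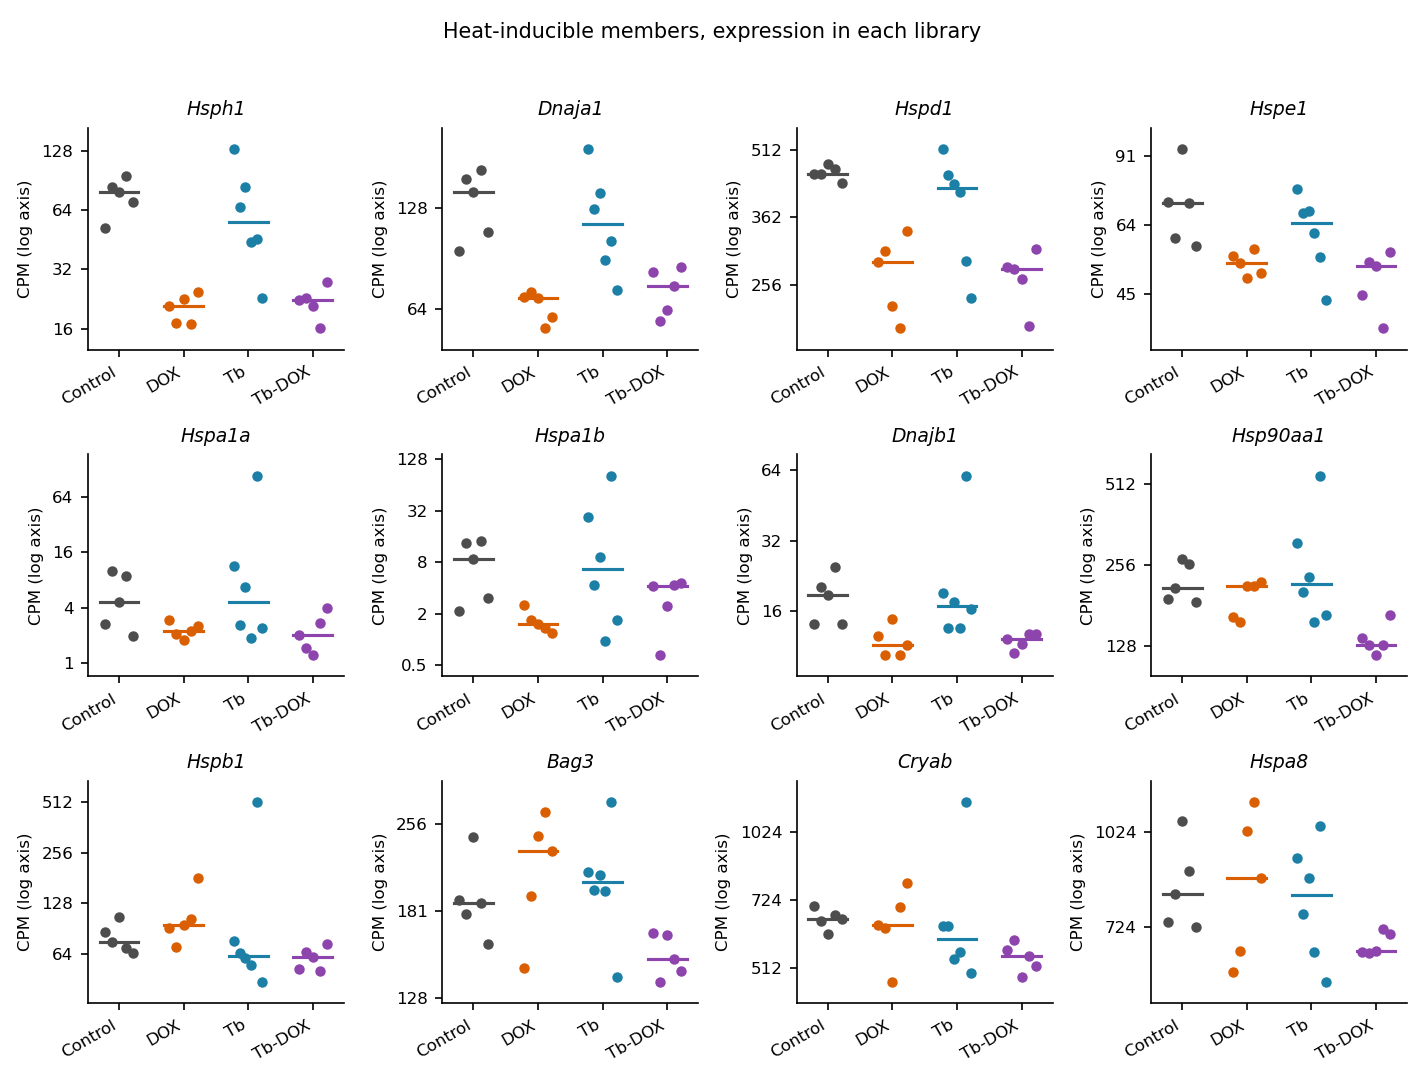
Expression in CPM (log axes) of 12 heat-inducible members in each library of Control and DOX (5 each), Tb (6) and Tb-DOX (5), with lines at the group medians. DOX and Control points are separate for Hsph1, Dnaja1, Hspd1 and Hspe1, and 1 Tb library, replicate 5, is far above the rest for Hspa1a, Hspb1, Dnajb1 and Cryab.

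J-domain proteins select clients for HSP70. Of the 4 Dnaja, 9 Dnajb and 24 Dnajc members tested, 6 rose and 6 fell in DOX against Control (all genes 18.0% higher and 18.2% lower). In Tb-DOX against Tb 2 rose and 2 fell by edgeR, and 2 rose and 4 fell by DESeq2 (all genes 2.18% higher and 2.54% lower by edgeR). Dnaja1, the cytosolic partner of HSC70, was 95.4, 157, 143, 167 and 109 CPM in Control and 69.2, 71.8, 69.0, 55.9 and 60.5 in DOX (2.06-fold lower, SE 0.204 in log2, adjusted p = 0.000554). It was 193, 128, 142, 89.5, 102 and 73.0 in Tb and 82.6, 58.6, 63.2, 74.8 and 85.2 in Tb-DOX (1.66-fold lower, SE 0.195, adjusted p = 0.0348). Treated libraries were lower in both states, with no overlap without a tumor and an overlap through Tb replicate 6 with one. The Tb-DOX call was lost in 8 of 21 fits without a library. Dnaja2, its close relative, rose by 0.27 in DOX (SE 0.0856, adjusted p = 0.0158), and by 0.14 without a call under library totals (adjusted p = 0.271).

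Dnajb1, the main stress-inducible partner of HSP70, was 14.1, 20.4, 18.8, 24.6 and 14.1 CPM in Control and 12.5, 10.4, 14.8, 10.4 and 11.5 in DOX. The ranges overlapped through DOX replicate 3 and the gene did not pass (log2 fold change -0.62, SE 0.315, adjusted p = 0.129). With Tb replicates 5 and 6 left out of the fit its adjusted p was 0.0027 at a log2 fold change of -0.61. In tumor-bearing mice Dnajb1 was 13.6 to 60.6 CPM in Tb (median 16.9) and 10.7 to 12.9 in Tb-DOX, without overlap and without a call (log2 fold change -0.96, adjusted p = 0.0692). Without Tb replicate 5 this change was -0.41 (adjusted p = 0.105).

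Of the Dnajb members, Dnajb2, which binds ubiquitin and HSP70, fell in DOX hearts. It was 65.3, 65.7, 89.3, 59.6 and 71.2 CPM in Control and 42.5, 46.8, 37.9, 33.9 and 42.7 in DOX (1.72-fold lower, SE 0.109 in log2, adjusted p = 2.38e-05). Dnajb14, an ER-membrane J protein, fell by 0.43 (SE 0.113, adjusted p = 0.00589), from 30.8 to 38.5 CPM in Control to 22.1 to 28.9 in DOX. Neither overlapped between the groups. Dnajb6, a suppressor of protein aggregation whose mutation causes muscular dystrophy, rose from 74.8, 69.4, 90.8, 74.4 and 82.4 CPM to 104, 109, 116, 128 and 98.3 (1.42-fold, SE 0.134, adjusted p = 0.00597). It carries an element of 3 units like Hsph1 and Hspd1, and moved in the opposite direction.

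Among the Dnajc members, Dnajc7, whose tetratricopeptide repeats bind both HSP70 and HSP90, rose in both states. It was 119, 116, 165, 116 and 125 CPM in Control and 174, 184, 224, 182 and 198 in DOX (1.502-fold, SE 0.105 in log2, adjusted p = 0.000256). In tumor-bearing mice it was 103 to 148 in Tb (median 122) and 179, 176, 192, 184 and 188 in Tb-DOX (1.47-fold, SE 0.1001, adjusted p = 0.00384). The groups did not overlap in either state. Dnajc5, the cysteine string protein of secretory vesicles, rose from 75.1 to 87.9 CPM in Control to 108 to 124 in DOX (log2 fold change 0.52, adjusted p = 0.000997). Dnajc9, a histone chaperone, rose from 10.5 to 17.0 to 14.5 to 24.3 CPM (log2 fold change 0.49, adjusted p = 0.0123), and did not pass under library totals (0.35, adjusted p = 0.0945). Dnajc4 passed with a tumor, from 10.9 to 14.1 CPM in Tb to 14.2 to 17.0 in Tb-DOX (log2 fold change 0.39, SE 0.104, adjusted p = 0.0355). It did not pass in 7 of the 21 such fits, nor under library totals (0.40, adjusted p = 0.0704).

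Dnajc28 had the second-largest decrease among members called without a tumor. It was 57.9, 58.5, 52.7, 61.0 and 59.8 CPM in Control and 34.2, 28.0, 23.3, 14.8 and 32.6 in DOX (2.18-fold lower, SE 0.215 in log2, adjusted p = 0.000459). Dnajc27 fell by 0.54 (adjusted p = 0.0457, lost in 14 of 21 fits without a library) and Dnajc1, an ER-membrane J protein, by 0.34 (adjusted p = 0.0129). Dnajc1, at 2.68 FPKM, overlaps Mllt10 (6.74 FPKM) over 16735 bases on the opposite strand, so its reads may include those of Mllt10.

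Several BAG proteins, though not all, are nucleotide exchange factors of HSP70. In DOX against Control, 2 of 6 rose and 0 fell, by edgeR and by DESeq2 (3 and 0 at an unadjusted edgeR p of 0.05), where 18.0% of all genes rose and 18.2% fell. Bag6, which handles mislocalized membrane proteins, was 92.0, 88.6, 86.7, 78.8 and 87.6 CPM in Control and 108, 113, 119.7, 126 and 117 in DOX (1.34-fold, SE 0.0824 in log2, adjusted p = 0.000496). Bag4 rose by 0.39 (SE 0.125, adjusted p = 0.0199), and by 0.25 without a call under library totals. Bag3, which with Hspb8 directs damaged sarcomeric proteins to autophagy, was 189, 179, 243, 187 and 159 CPM in Control and 144, 193, 244, 269 and 230.2 in DOX (log2 fold change 0.17, adjusted p = 0.408). Hspb8 was 351 to 412 in Control and 253 to 453 in DOX (log2 fold change -0.11, adjusted p = 0.681). The DOX libraries were more scattered than Control for both partners. In Tb-DOX against Tb 0 BAG members passed by edgeR (1 higher and 2 lower at an unadjusted p of 0.05, 1 and 1 with DESeq2), and Bag3 had a log2 fold change of -0.44 (adjusted p = 0.104). Without Tb replicates 5 and 6 edgeR called Bag6 higher (0.31, adjusted p = 0.0215) and Bag2 lower (-0.35, adjusted p = 0.047).

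**Figure D3:**
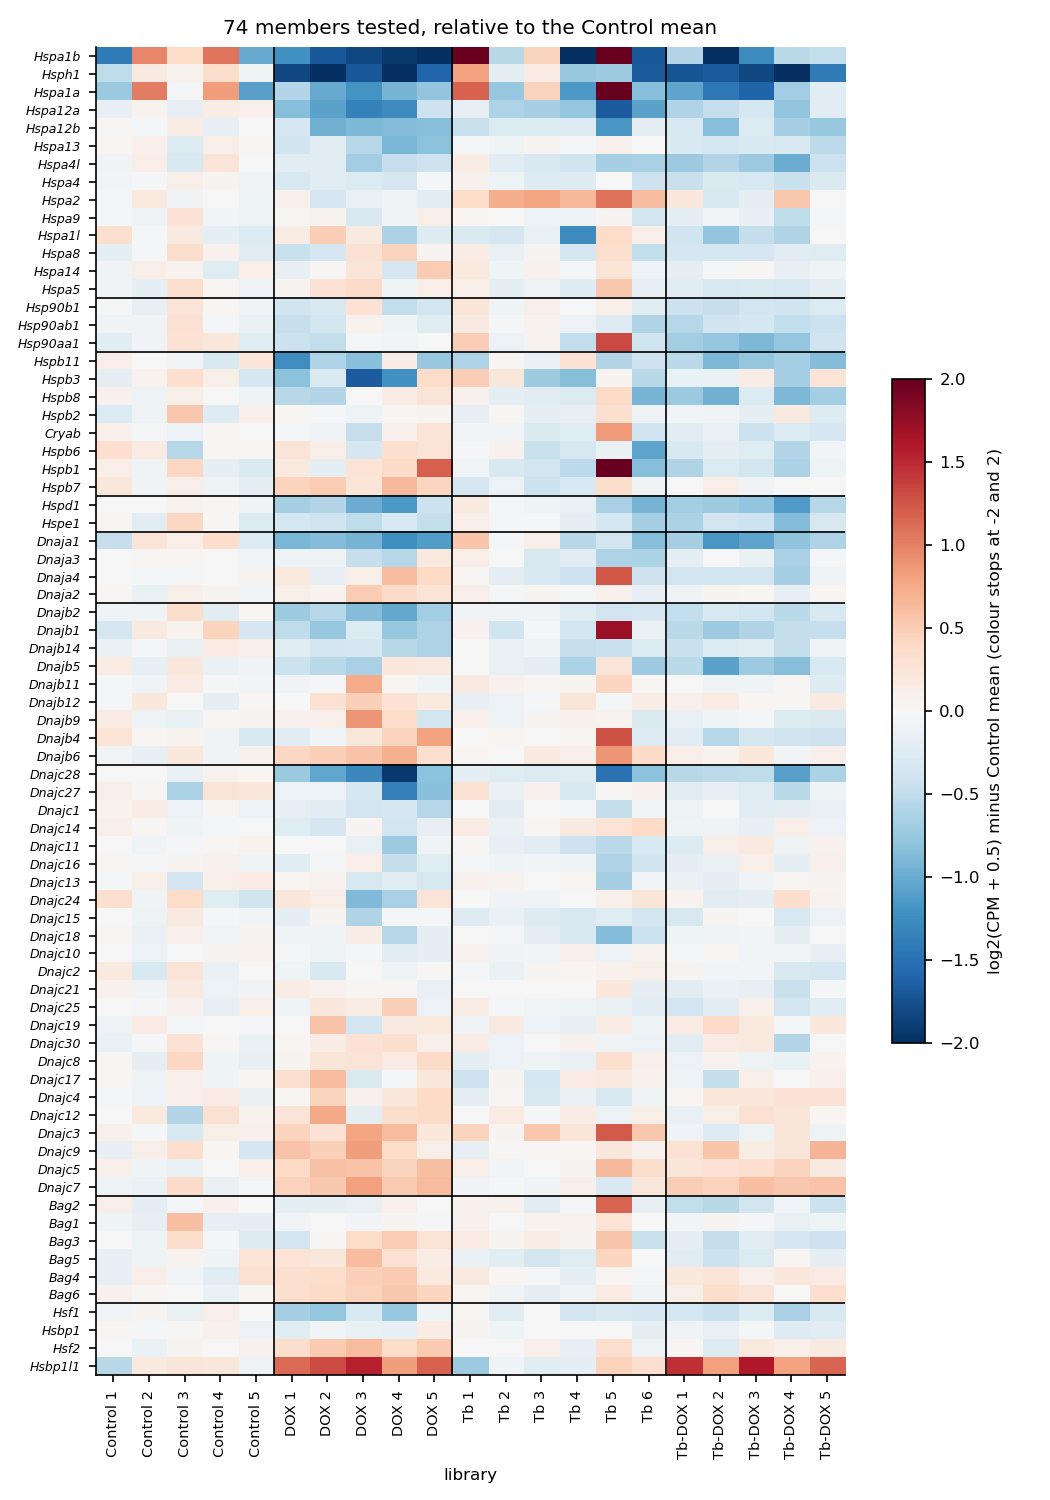
Expression of the 74 members tested (rows, by family, separated by lines: HSP70 and HSP110, HSP90, small heat shock proteins, chaperonin, J-domain A, B and C, BAG, HSF and HSBP) in the 21 libraries (columns), as log2(CPM + 0.5) minus the Control mean, with colours ending at -2 and 2. Hsph1 and Hsbp1l1 show opposite colours in both DOX groups, and Tb replicate 5 differs from its group in members of several families.

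Interaction terms were then examined, to see whether the effect of DOX differed with a tumor. Of the 74 members, 6 passed (8.11%, background 8.94%), 3 with a positive difference (background 3.95%) and 3 with a negative one (699 of the 13990 genes tested). Of these, 2 exceeded an absolute difference of 1 (background 3.89%). Hspa12a, Dnajc3 and Dnajb6 passed the adjusted p in all 21 fits that left out a library. Dnajc3 encodes the ER-resident inhibitor P58IPK, which restrains the kinase PERK. It was 62.4, 56.8, 46.7, 63.2 and 62.4 CPM in Control and 79.4, 71.0, 99.96, 89.8 and 67.0 in DOX (log2 fold change 0.48, SE 0.167, adjusted p = 0.0281), and under library totals this rise did not pass (0.36, adjusted p = 0.0989), while the changes with a tumor and between the states did (-0.58 and -0.94, adjusted p = 0.0494 and 0.0204). With a tumor it was 79.2, 60.5, 84.7, 68.7, 136 and 84.7 in Tb and 55.3, 48.6, 53.9, 68.6 and 54.2 in Tb-DOX (log2 fold change -0.61, SE 0.161, adjusted p = 0.0331). DOX hearts were higher without a tumor and lower with one, and the difference between these changes was -1.09 (SE 0.232, adjusted p = 0.0135). Without Tb replicates 5 and 6 the difference was -0.87 (adjusted p = 0.0071) and the decrease with a tumor -0.38, no longer called (adjusted p = 0.0591).

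Dnajb6 and Hsf2 also had negative differences, but neither was called lower with a tumor. Dnajb6 rose in DOX against Control and had a log2 fold change of -0.21 in Tb-DOX against Tb, from 77.4 to 144 CPM in Tb (median 86.5) to 75.1 to 90.9 (difference -0.71, SE 0.185, adjusted p = 0.0262). Its Tb replicates 1 to 4, at 77.4 to 88.9 CPM, lay within the Tb-DOX range. For Hsf2 the difference was -0.48 (adjusted p = 0.0454, lost in 13 of 21 fits without a library). Under library totals neither difference passed, at -0.55 and -0.32 (adjusted p = 0.0643 and 0.184).

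For the other 3 members DOX lowered expression without a tumor and the tumor-bearing groups were closer together. Hspa12a was 17.4, 12.6, 12.2, 11.2, 5.84 and 9.11 CPM in Tb and 12.7, 14.1, 15.2, 11.2 and 16.7 in Tb-DOX (log2 fold change 0.29, adjusted p = 0.451), and the difference between the states was 1.29 (SE 0.299, adjusted p = 0.0174). Dnajb2 was 53.0 to 66.3 CPM in Tb (median 63.1) and 47.7 to 56.3 in Tb-DOX, a difference of 0.57 (SE 0.15, adjusted p = 0.0269). Dnajc28 was 51.15, 49.1, 47.9, 48.6, 20.4 and 32.5 CPM in Tb (median 48.3) and 27.0 to 40.5 in Tb-DOX. Tb replicates 1 to 4 lay above every Tb-DOX library, and only replicates 5 and 6 brought these groups together. The difference between the states was 0.95 (SE 0.294, adjusted p = 0.0466, lost in 13 of 21 fits without a library).

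**Figure D4:**
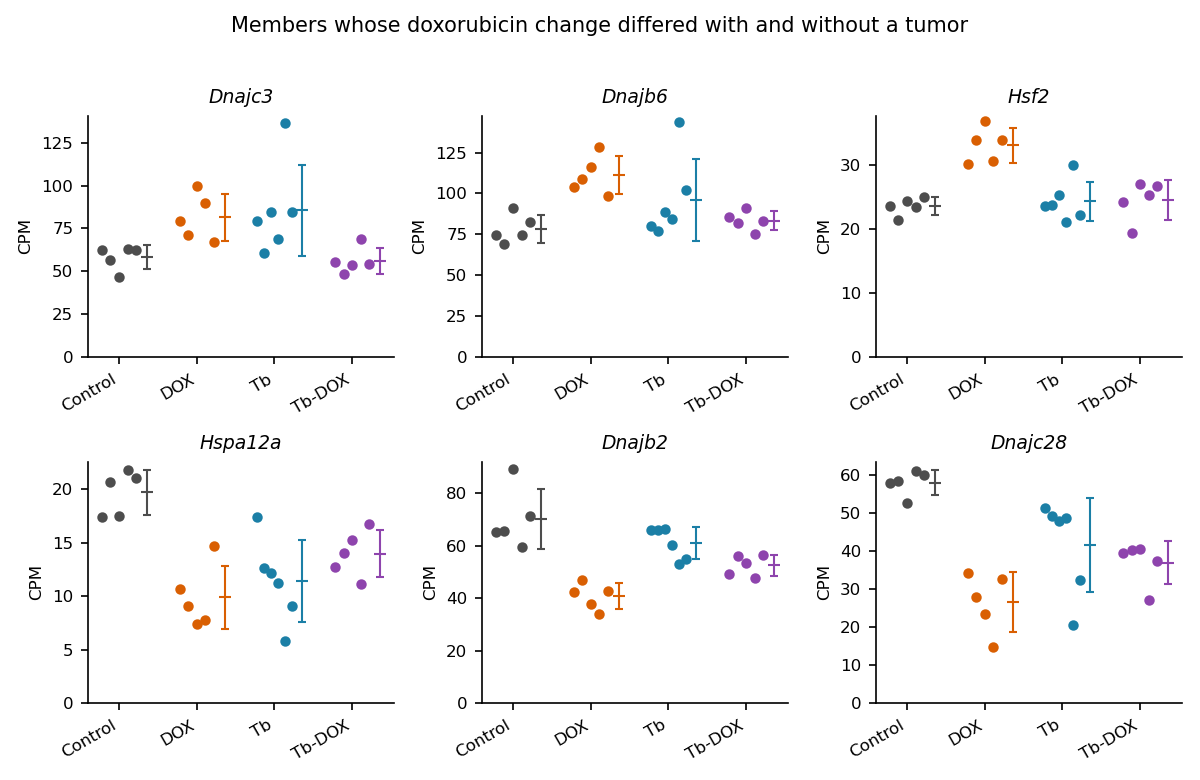
CPM of the 6 members with an interaction adjusted p under 0.05 in each library of the 4 groups (5, 5, 6 and 5 libraries), with mean and SD beside the points. Dnajc3, Dnajb6 and Hsf2 are higher in DOX than in Control, while in Tb-DOX against Tb their log2 fold changes are -0.61, -0.21 and 0.01, and Hspa12a, Dnajb2 and Dnajc28 are lower in DOX than in Control and change less between Tb and Tb-DOX.

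A tumor without DOX moved few members. In Tb against Control 3 of 74 passed (4.05%, background 6.28%), Hspa2 and Dnajc3 higher and Hspa12a lower. None exceeded an absolute log2 fold change of 1 (0 members, background 3.60%), and the groups did not overlap for 4 members (background 6.18%). Dnajc3 was higher by 0.56 (SE 0.161, adjusted p = 0.0408), and by 0.38 without Tb replicate 5 (adjusted p = 0.0837). Hspa12a fell by 0.79 (SE 0.205, adjusted p = 0.0216), and its change was -0.55 without Tb replicates 5 and 6 (adjusted p = 0.108).

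In DOX-treated mice the tumor comparison, Tb-DOX against DOX, called 13 of 74 members (17.6%, background 17.5%), 12 lower (background 7.93%) and 1 higher (background 9.52%). The groups did not overlap for 8 members (background 14.5%), and 0 exceeded an absolute log2 fold change of 1 (background 5.62%). These included Bag3 and Hspb8 of the autophagy complex, at -0.51 and -0.58 (adjusted p = 0.0317 and 0.0433), Hspb7 at -0.45 (adjusted p = 0.0161), Bag5 at -0.54 (adjusted p = 0.0106) and the ER members Hspa5 at -0.43, Dnajb9 at -0.44 and Dnajc3 at -0.54 (adjusted p = 0.0279, 0.0473 and 0.0302). The ER HSP70 Hspa5 (BiP) was 542, 635, 673, 486 and 566 CPM in DOX and 439.9, 420.5, 423, 416 and 455 in Tb-DOX, without overlap. Dnajb2 was the member that was higher, by 0.37 (adjusted p = 0.0236). The direction of this comparison depended on the scaling. With library totals, under which all genes had a median change of 0.18 (log2; -0.01 by TMM), 5 members passed, 5 higher and 0 lower (by TMM 1 and 12), and 11 of the 12 lower members, those followed under each setting, had changes of -0.11 to -0.49 without a call. The count was 3 without DOX replicate 3 and 19 without Tb replicate 5.

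By the groups of members known to respond to particular stresses, the 13 heat-inducible members had 4 lower and 0 higher in each DOX comparison by edgeR (5 and 11 lower and 0 higher at an unadjusted p of 0.05, 5 and 7 lower and 0 higher with DESeq2), with median log2 fold changes of -0.43 and -0.73 (all genes 0.00 and -0.02). By edgeR's adjusted p the share of all genes called lower was 18.2% without a tumor and 2.54% with one. Shares of all genes at the unadjusted p and with DESeq2, which gave 12 of the 13 an adjusted p, were not computed. The members called lower by edgeR were Hsph1, Dnaja1, Hspd1 and Hspe1 without a tumor and Hsph1, Dnaja1, Hsp90aa1 and Hspa1a with one. Without Tb replicate 5 the medians were -0.42 and -0.41, with 7 lower without a tumor, where Dnajb1, Hspa1a and Hspa1b were added, and 4 lower with one, where Hspd1 took the place of Hspa1a. Of the 8 members of the ER list, which does not hold Dnajb14, 1 rose (Dnajc3) and 2 fell (Hspa13, Dnajc1) without a tumor, and 2 fell (Hsp90b1, Dnajc3) with one (4 at an unadjusted p of 0.05, 3 with DESeq2). Of all genes 18.0% rose without a tumor.

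Genes of the wider pathway were taken from lists of known chaperone partners. Of 22 cochaperones of HSP90 and HSP70 outside the members, 5 rose and 9 fell in DOX against Control, and 2 rose and 3 fell in Tb-DOX against Tb (all genes 18.0% higher and 18.2% lower, and 2.18% and 2.54%). Those that fell included Chordc1 (log2 fold change -1.30, adjusted p = 4.6e-05), the immunophilin Fkbp4 (-1.04, adjusted p = 0.00112), the HSP90 ATPase activator relative Ahsa2 (-1.02, adjusted p = 0.000141) and, in both states, St13 (-0.44 and -0.43) and Ptges3 (-0.44 and -0.39), which hold HSP70 and HSP90 in client complexes. Fkbp5, a glucocorticoid-induced immunophilin, rose by 1.49 (adjusted p = 0.0134) and Unc45a, an HSP90 cochaperone for myosin, by 0.87 and 0.50 in the 2 states (adjusted p = 7.93e-05 and 0.0303). Grpel1, the nucleotide exchange factor of mitochondrial HSP70, rose by 0.60 and 0.37 (adjusted p = 8.89e-05 and 0.0241). Of the 22 cochaperones, DESeq2 called 5 higher and 9 lower without a tumor, and 3 higher and 5 lower with one. At an unadjusted edgeR p of 0.05 these were 6 and 10, and 6 and 7.

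Of 14 genes of the cytosolic chaperonin and prefoldin, which fold actin and tubulin, 5 rose and 0 fell in DOX against Control (all genes 18.0% and 18.2%), among them Cct2 (0.48, adjusted p = 0.00756) and Pfdn1 (0.45, adjusted p = 0.00252), and 0 of 14 passed in Tb-DOX against Tb by edgeR or DESeq2 (2 lower at an unadjusted edgeR p of 0.05). Of 18 ER chaperones and unfolded-protein-response genes outside the members, 9 fell and 1 rose without a tumor, by edgeR and by DESeq2, and 7 fell with one (9 with DESeq2). Of all genes 18.2% and 2.54% were lower. The collagen chaperone Serpinh1 (HSP47) fell from 100.3 to 145 CPM in Control to 28.4 to 38.2 in DOX (log2 fold change -1.78, SE 0.199, adjusted p = 3.31e-06) and from 56.2 to 162 in Tb to 38.2 to 50.4 in Tb-DOX (-1.08, adjusted p = 0.00277). Of the 5 fibroblast markers, Col1a1 and Col1a2 fell (-2.19 and -2.12) and Pdgfra rose (0.44) in DOX against Control, and 1 fell in Tb-DOX against Tb, while their sum was 929.7 to 1181 CPM in Control and 837 to 1403.5 in DOX. Their part in the change of Serpinh1 was not tested. The folding enzymes Pdia6 (-0.84 and -0.70), Calr (-0.76 and -0.67) and Pdia4 (-0.94 and -0.55) passed in both states.

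Cold-inducible RNA-binding genes, the counterparts of heat shock genes in that they rise when temperature falls, were included as a contrast, together with clock genes. Cirbp was 33.7, 31.6, 35.5, 27.9 and 34.4 CPM in Control and 107, 124, 177, 134 and 97.7 in DOX (log2 fold change 1.97, SE 0.238, adjusted p = 7.4e-06). It was 31.5, 36.5, 40.7, 57.6, 90.5 and 83.4 in Tb and 77.4, 83.3, 84.9, 94.2 and 66.9 in Tb-DOX (log2 fold change 0.52, adjusted p = 0.178), so Tb replicates 5 and 6 lay within the Tb-DOX range. Rbm3 was 37.8 to 48.8 CPM in Control and 134 to 187 in DOX (log2 fold change 1.88, adjusted p = 3.57e-05). Of the 10 genes of this list, 4 rose and 2 fell in DOX against Control (all genes 18.0% and 18.2%), and 0 rose and 1 fell in Tb-DOX against Tb (all genes 2.18% and 2.54%). Arntl, the positive limb of the clock, was among those that rose (3.21, adjusted p = 0.000704), and Dbp and Per3 fell (-1.49 and -1.30). The time of day at which hearts were taken is not given in the sources used here, and its part in the results was not tested.

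Within Tb, where Cirbp ranged from 31.5 to 90.5 CPM, Hsph1, Dnaja1, Hspd1 and Hspe1 were set against Cirbp after their values were seen, so the correlations are a description with no test. Over the 6 Tb libraries Pearson's r with Cirbp was -0.93 for Hspd1, -0.91 for Hspe1, -0.86 for Hsph1 and -0.85 for Dnaja1, and Spearman's rho was -0.94, -0.89, -0.77 and -0.77. Without Tb replicates 5 and 6, r over the other 4 libraries was -0.88, -0.94, -0.90 and -0.94 in the same order. The other members that fell with DOX were not examined in this way. No correlation was computed over all 21 libraries.

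**Figure D5:**
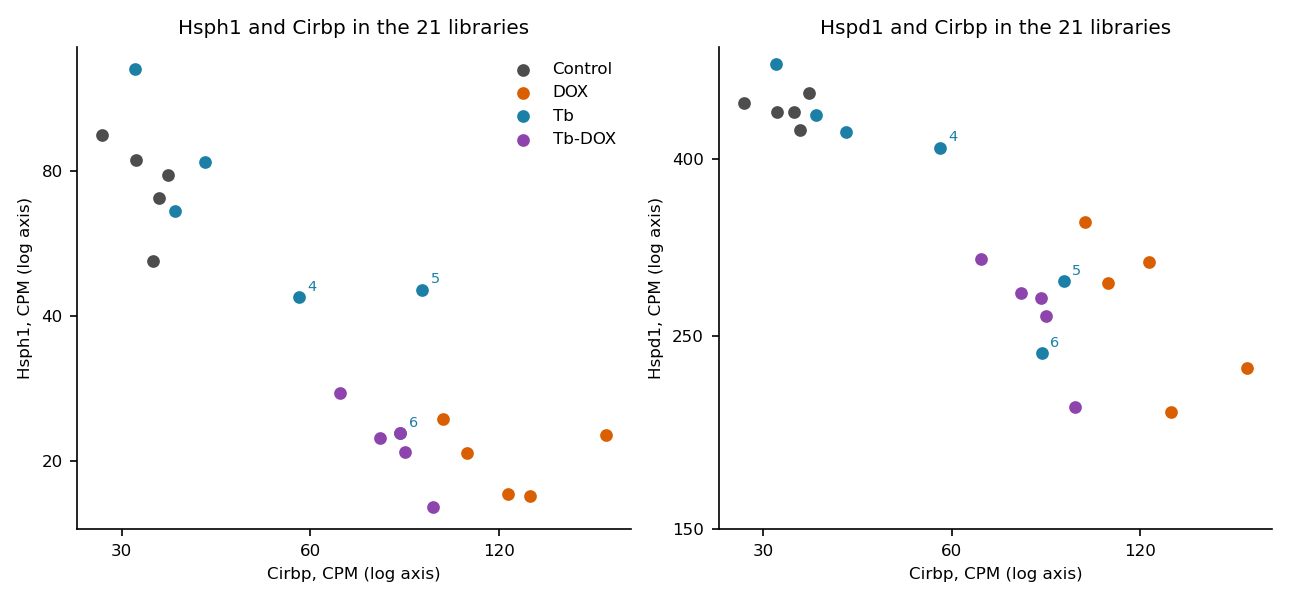
CPM of Hsph1 (left) and Hspd1 (right) against CPM of Cirbp (log axes) in the 21 libraries, coloured by group, with Tb replicates 4, 5 and 6 numbered. Control and Tb replicates 1 to 3 lie at the upper left and the DOX and Tb-DOX libraries at the lower right, with Tb replicates 5 and 6 nearest to the treated libraries on the Cirbp axis.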

How the data were processed

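Hearts of 21 mice were sequenced as polyadenylated RNA in paired reads of 150 bases. The authors deposited 1 table with raw read counts and FPKM per gene for every library, and the deposited FPKM equalled the count per kb of exon per 1000000 counts in 100% of values. The submitters' processing notes name cutadapt, FastQC, HISAT2, HTSeq 0.6.1, DESeq2 1.34.0 and GRCm39, and the strand setting is not given in the sources used here. Groups came from the labels. Counts of genes with a mean of at least 0.5 FPKM were fitted with edgeR 4.0.16 (quasi-likelihood, TMM scaling, R 4.3.3), with 1 coefficient per group, Benjamini-Hochberg adjustment over all genes tested, and calls at an adjusted p under 0.05. CPM are counts per 1000000 of the TMM-scaled total. Alternatives were other scalings, filters, DESeq2 1.42.0, limma 3.58.1 on log2(FPKM + 0.1) and log2(FPKM + 1), a replicate block, and leaving out each library. Leaving out Tb replicates 5 and 6 together and array weights were added after seeing the data.

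The members and lists were chosen with earlier results of these data known. Members named are up to 15 called per direction in the DOX comparisons and the interaction and up to 5 in the tumor comparisons, the most abundant of each family, the heat-inducible, ER, HSF and HSBP members, and up to 3 genes per direction of each pathway list. Hspa4 and the other members of the mitochondrial list were named after their values were seen. Counting error is small at these totals (13521200 to 18601445 per library) for all but the lowest members. Near-identical copies can divide reads: stretches of 100 bases shared with another gene cover 44.0% of Hspb1, 38.0% of Hsp90aa1, 28.2% of Hspa8 and 23.4% of Hspd1, and Dnajc7, Dnaja1, Cryab and Hspd1 are among the members that overlap other genes. The result of 1 pathway list is not reported here.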

Additional observations from a re-analysis of the deposited data

Results flagged for a closer look

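Single libraries far from the rest of their group were found in 22 of 196 group values examined, where chance gives about 1 in 20, and 10 of the 22 were Tb replicate 5. In that library the highest of its group were Hspa1a (108 CPM), Hspa1b (82.3), Dnajb1 (60.6), Hspb1 (512), Cryab (1190 to 3 digits), Dnajb4 (498), Bag1 (191), Dnajb11 (66.8) and the ER member Dnajc3 (136), and Hspa12b was the lowest (17.6). Control replicate 3 was highest for Bag1 (240 CPM), Hsp90ab1 (1520 to 3 digits), Hspa9 (1030 to 3 digits), Dnajc7 (165) and Dnajb11 (55.4) and lowest for Hspa13 (20.9), and Control replicate 2 was highest for Hspa2 (5.99). DOX replicate 3 was highest for the ER members Dnajb11 (82.6 CPM) and Hsp90b1 (465), and DOX replicate 1 for Hspa12b (31.9). Dnajc28 was lowest in Tb-DOX replicate 4 (27 CPM) and Hspa13 in Tb-DOX replicate 5 (17.5).

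The effect of DOX differed between tumor-bearing and other mice for 6 members by the interaction term, with differences in log2 fold change of -1.09 for Dnajc3, -0.71 for Dnajb6, -0.48 for Hsf2, 1.29 for Hspa12a, 0.95 for Dnajc28 and 0.57 for Dnajb2 (edgeR adjusted p = 0.0135, 0.0262, 0.0454, 0.0174, 0.0466 and 0.0269). Under library totals the differences of Dnajb6 and Hsf2 were -0.55 and -0.32 and did not pass (adjusted p = 0.0643 and 0.184).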

How the results depend on the processing

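Counts of members called in DOX against Control stayed within 1.5 times of 27 under every alternative run except a minimum absolute log2 fold change of 1, which left 4, and no member named changed sign among called values. In Tb-DOX against Tb the count of 10 became 3 with that minimum, 5 with only the groups compared, 6 with limma at either pseudocount, 18 with DESeq2, 24 with array weights and 17 without Tb replicates 5 and 6. The 6 interaction calls became 2 with the minimum fold. The 3 calls in Tb against Control became 0 with the minimum fold, and 1 with a mean FPKM of at least 5, with only the groups compared or without Tb replicates 5 and 6. The 13 calls in Tb-DOX against DOX became 0 with the minimum fold, 5 with library totals, 5 with a mean FPKM of at least 5 (54 members), 5 with limma at either pseudocount, and 21 without Tb replicates 5 and 6. Leaving out 1 library at a time gave 23 to 32 calls in DOX against Control, 3 to 19 in Tb-DOX against Tb, 4 to 9 for the interaction, 1 to 4 in Tb against Control and 3 to 19 in Tb-DOX against DOX. The minimum fold and the FPKM minimum admit fewer members by construction, and for the others the cause was not tested. Counting error is a larger part of the values of Hsbp1l1 and Hspb11, at 7 to 69 and 18 to 89 counts per library, than of those of abundant members.

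Groups share replicate numbers in the labels, but same-numbered libraries did not deviate together (correlations of -0.26 to 0.23 over 30 pairs, 5 of them over 0.1), so the numbers were not taken as pairs. With a replicate block, 28 members were called in DOX against Control, 14 in Tb-DOX against Tb, 3 for the interaction, 1 in Tb against Control and 13 in Tb-DOX against DOX.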
